A study of Mus musculus with 17 samples.

Results

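The genes described here are those of the Toll-like receptors (TLRs) Tlr1, Tlr2, Tlr3, Tlr4, Tlr6, Tlr7, Tlr8, Tlr9 and Tlr13, together with Cd14. They were taken by gene symbol as 10 of the 22859 genes of a count table of bulk RNA-seq, and all 10 were among the 15272 genes with enough counts to be tested. The 17 libraries came from macrophages of the synovium, the membrane that lines joints. All mice, controls included, were labelled knockouts of Fcgr2b, the gene of the inhibitory Fc receptor for immunoglobulin G, so no wild-type mouse entered any comparison here. The treated mice received immune complexes (IC) of ovalbumin and rabbit antibody into a vein and were killed 8 h later. The labels call the other mice healthy controls, and what they received was not stated. The methods give mice of 8 to 20 weeks and both sexes for the study in general, and they do not say how many mice stand behind a library, so that p-values measure the spread between these libraries, which may be technical. Cells were sorted after collagenase digestion into 3 subsets, which were LYVE1+CX3CR1+ macrophages (labelled Lyve1), MHCII+CD11c- macrophages (labelled IAIE) and MHCII+CD11c+ macrophages (labelled CD11c). Each subset had 3 control and 3 IC libraries, but for MHCII+CD11c+ macrophages, which had 2 IC libraries.

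TLRs are membrane proteins with which macrophages recognize molecules of microbes and of damaged cells. Those on the cell surface read mainly lipids and proteins. TLR2 pairs with TLR1 or TLR6 to bind lipopeptides, and TLR4 binds lipopolysaccharide, which the surface protein CD14 passes to it. Those in endosomes, TLR8 among them, read nucleic acids. TLR3 binds double-stranded RNA, TLR7 single-stranded RNA, TLR9 DNA with unmethylated CG sites and TLR13 a stretch of bacterial ribosomal RNA. The endosomal receptors need the chaperone UNC93B1 to reach their compartment and proteases to mature there. All TLRs except TLR3 signal through the adaptor MyD88, and TLR3 and TLR4 also use TRIF. Nucleic acids in immune complexes are known to reach endosomal TLRs after uptake through Fc receptors.

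In the GENCODE M21 annotation of GRCm38 (mm10), the genes of the surface TLRs lie at chr5:64924679-64933563 (Tlr1), chr3:83836272-83841767 (Tlr2), chr4:66827584-66930284 (Tlr4) and chr5:64952031-64960097 (Tlr6). Tlr1 and Tlr6 are near neighbors of similar sequence. Of the 100-base windows of the Tlr1 transcripts, 259 of 3282 (7.89%) also occurred in Tlr6, so reads over them may be split or lost and the values of both genes are uncertain to that extent. The endosomal genes lie at chr8:45395665-45411080 (Tlr3), chrX:167304929-167330558 (Tlr7), chrX:167242696-167264329 (Tlr8), chr9:106222598-106226883 (Tlr9) and chrX:106143204-106160493 (Tlr13). Tlr7 and Tlr8 are neighbors on the same strand, and no window was shared among TLRs other than Tlr1 and Tlr6.

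RefSeq promoters (GRCm38.p6) were on hand for 7 of the 10 genes. Those of Tlr2, the TLR gene with the highest level, and of the 3 TLR genes with a call after IC challenge (Tlr8, Tlr9 and Tlr13) are shown up to the start of the gene in GENCODE. Capitals mark matches to the motifs described after the sequences. Tlr2 is chr3:83841768-83841858 (minus strand), Tlr8 is chrX:167264330-167264579 (minus strand), Tlr9 is chr9:106222348-106222597 (plus strand) and Tlr13 is chrX:106143025-106143203 (plus strand).
Tlr2: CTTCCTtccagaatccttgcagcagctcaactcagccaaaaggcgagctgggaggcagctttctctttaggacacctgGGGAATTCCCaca
Tlr8: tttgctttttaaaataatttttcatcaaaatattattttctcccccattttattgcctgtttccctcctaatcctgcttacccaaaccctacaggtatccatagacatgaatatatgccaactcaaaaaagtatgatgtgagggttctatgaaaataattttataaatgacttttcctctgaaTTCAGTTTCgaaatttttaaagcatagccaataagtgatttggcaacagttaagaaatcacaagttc
Tlr9: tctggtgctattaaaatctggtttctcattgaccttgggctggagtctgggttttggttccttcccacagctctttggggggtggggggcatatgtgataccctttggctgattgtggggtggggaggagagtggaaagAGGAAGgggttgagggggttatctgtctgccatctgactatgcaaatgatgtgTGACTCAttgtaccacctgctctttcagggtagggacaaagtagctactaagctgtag
Tlr13: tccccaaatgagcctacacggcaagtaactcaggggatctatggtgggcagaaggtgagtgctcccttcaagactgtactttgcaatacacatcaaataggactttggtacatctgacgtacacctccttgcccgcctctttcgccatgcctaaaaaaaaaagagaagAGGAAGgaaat

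The motifs were searched on both strands of the 250 bases before each RefSeq start, a window that runs past the printed stretch for Tlr2 and Tlr13. Across all 32851 promoters, AGGAAG, like the PU.1 site, occurred in 29.5%, GAAANNGAA, like an interferon response element, in 7.13%, TGANTCA, like the AP-1 site, in 6.75% and GGGNNNTCC, like the NF-kB site, in 15.2%. Tlr9 held AGGAAG at -111 and TGANTCA at -58 from the start. Tlr13 held AGGAAG at -82, and Tlr8 held GAAANNGAA at -67 on the minus strand. Tlr2 held AGGAAG at -250 on the minus strand and GGGNNNTCC at -172 and, overlapping it, at -171 on the other strand. The promoter of Tlr9, the receptor for CG-containing DNA, itself held 0 CG sites, against a median of 6 over all promoters and 11 in Tlr2, 5 in Tlr13 and 1 in Tlr8. A match describes letters in a window and is not a measured binding site.

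Levels are given as CPM (counts per 1000000 of the library size scaled by TMM). Library totals ran from 2301913 to 7248939 counts, and a count of 3 corresponded to between 0.414 and 1.30 per 1000000 of these unscaled totals. Counting error alone is covered by that floor. LYVE1+CX3CR1+ libraries after IC were the shallowest (2301913 to 3348248 counts) and held 11547 to 13862 genes at equal depth, against 13818 to 17669 in all others. Lyve1 (1730 to 4120 CPM) and Vsig4 (1120 to 2020 CPM) were high in the LYVE1+CX3CR1+ libraries, and H2-Ab1 was high in the MHCII+ libraries (2650 to 9800 CPM, against 9.76 to 36.8 CPM). Itgax, which encodes CD11c, was at 275 to 443 CPM in the MHCII+CD11c+ libraries and at 0 to 16.0 CPM elsewhere. Lyve1 was also present in the MHCII+CD11c- libraries (695 to 2460 CPM). Control library 2 of MHCII+CD11c+ macrophages stood apart from its group, with 382 CPM of Lyve1 against 29.8 and 25.3 CPM, and control library 2 of MHCII+CD11c- macrophages held 306 CPM of Vsig4 against 29.0 and 22.4 CPM. Values without these libraries stand beside the results that they move most. The libraries were picked after the data were seen, so such values show how far a result rests on them. They give it no independent support. Fcgr2b itself had 69.3 to 248 CPM in all 17 libraries, and counts per gene do not show which exons were read, so that the knockout could not be checked.

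Per kilobase of transcript, Cd14 had the highest level of the 10 genes in every library, and Tlr2 came next. Cd14 averaged between 215 CPM per kb in LYVE1+CX3CR1+ controls and 480 CPM per kb in MHCII+CD11c+ macrophages after IC. Tlr2 averaged between 61.7 CPM per kb in MHCII+CD11c- controls and 162 CPM per kb in LYVE1+CX3CR1+ macrophages after IC. Tlr2 lay above the next TLR gene in each of the 17 libraries.

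Below Tlr2 the order differed between subsets. In LYVE1+CX3CR1+ controls, Tlr7 (37.6 CPM per kb) lay above Tlr13 (29.6 CPM per kb) in each library, Tlr13 and Tlr8 (27.5 CPM per kb) overlapped, and Tlr4 (15.3 CPM per kb) and Tlr9 (7.28 CPM per kb) followed without overlap. In MHCII+CD11c- controls, Tlr7 (31.2 CPM per kb), Tlr8 (26.6 CPM per kb), Tlr9 (22.1 CPM per kb) and Tlr4 (17.5 CPM per kb) could not be ranked, since each overlapped the next. In MHCII+CD11c+ controls, Tlr9 had the next highest mean after Tlr2 (18.5 CPM per kb) and overlapped Tlr8, and Tlr8, Tlr4, Tlr7, Tlr13 and Tlr6 followed between 11.5 and 3.67 CPM per kb, each overlapping the next. After IC, the neighbors that overlapped in LYVE1+CX3CR1+ macrophages were Tlr13, Tlr8 and Tlr7 (39.1 to 29.5 CPM per kb), and Tlr6, Tlr3, Tlr9 and Tlr1 (4.19 to 1.64 CPM per kb). In MHCII+CD11c- macrophages after IC they were Tlr8 with Tlr7 (44.2 and 35.3 CPM per kb), Tlr7 with Tlr13 (27.8 CPM per kb), Tlr9 with Tlr4 (18.8 and 18.5 CPM per kb) and Tlr6 with Tlr3 (3.03 and 2.59 CPM per kb). In MHCII+CD11c+ macrophages after IC, Tlr8, Tlr9, Tlr13 and Tlr7 lay between 21.6 and 14.9 CPM per kb, each overlapping the next. Tlr1, Tlr3 and Tlr6 were at or under 5.08 CPM per kb in every group, except Tlr1 in MHCII+CD11c- macrophages after IC (11.2 CPM per kb). The lowest count of any of the 10 genes was 3, for Tlr1 in LYVE1+CX3CR1+ control library 2.

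**Figure D1:**
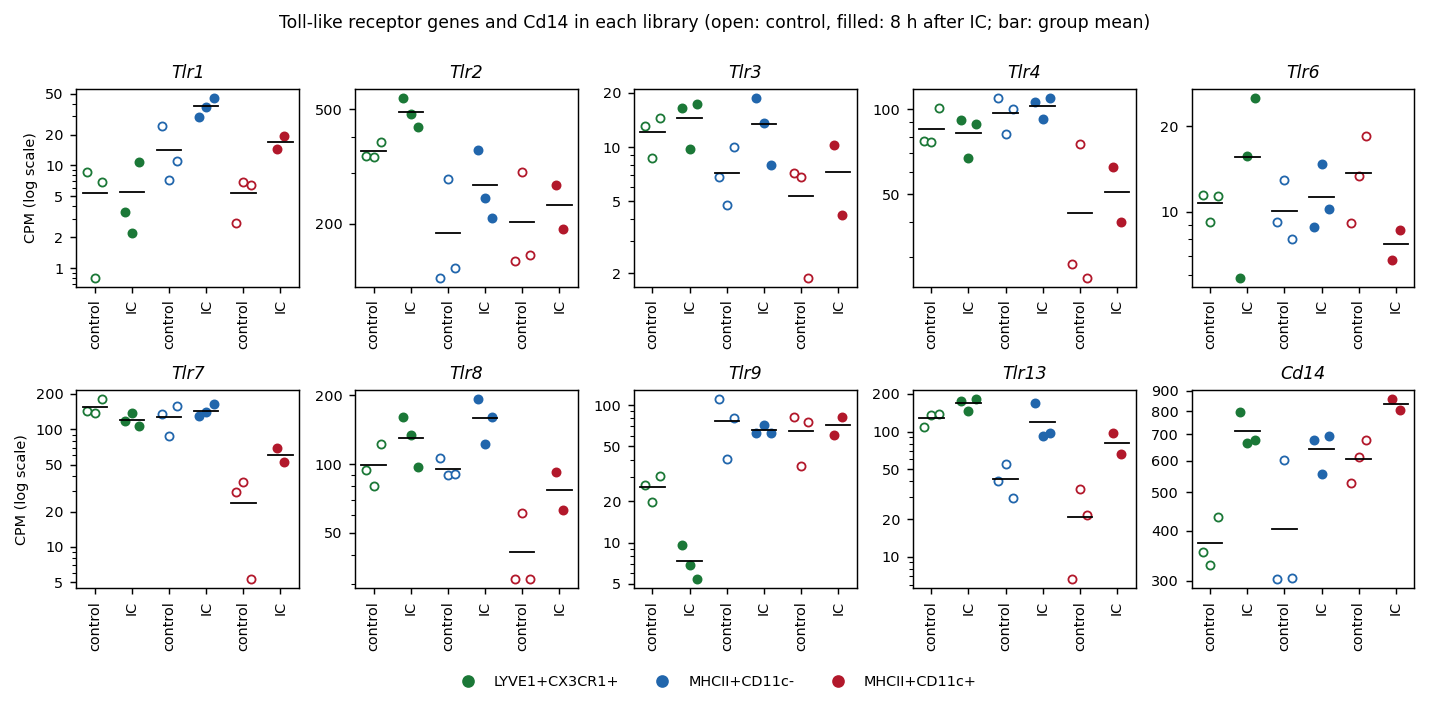
Level of each of the 10 genes (CPM, log axis with its own range in each panel) in the 17 libraries, with control libraries as open points, IC libraries as filled points and the group mean as a bar. Tlr9 lies between 5.39 and 9.65 CPM in the 3 LYVE1+CX3CR1+ libraries after IC and at 19.7 CPM or above in every other library.

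Of the summed CPM per kb of the 9 TLR genes, Tlr2 made up 49.0% in LYVE1+CX3CR1+ controls, 34.4% in MHCII+CD11c- controls and 53.9% in MHCII+CD11c+ controls. The 5 endosomal genes made up 42.9%, 51.8% and 35.6% in the same order. Among them, Tlr9 made up 2.99%, 12.6% and 17.1%, and Tlr13 12.2%, 5.42% and 3.80%. After IC the share of Tlr9 was 0.710%, 7.63% and 12.4% in the same order of subsets, and that of Tlr13 was 13.4%, 10.8% and 11%. These shares are descriptions of the libraries, with no test.

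**Figure D2:**
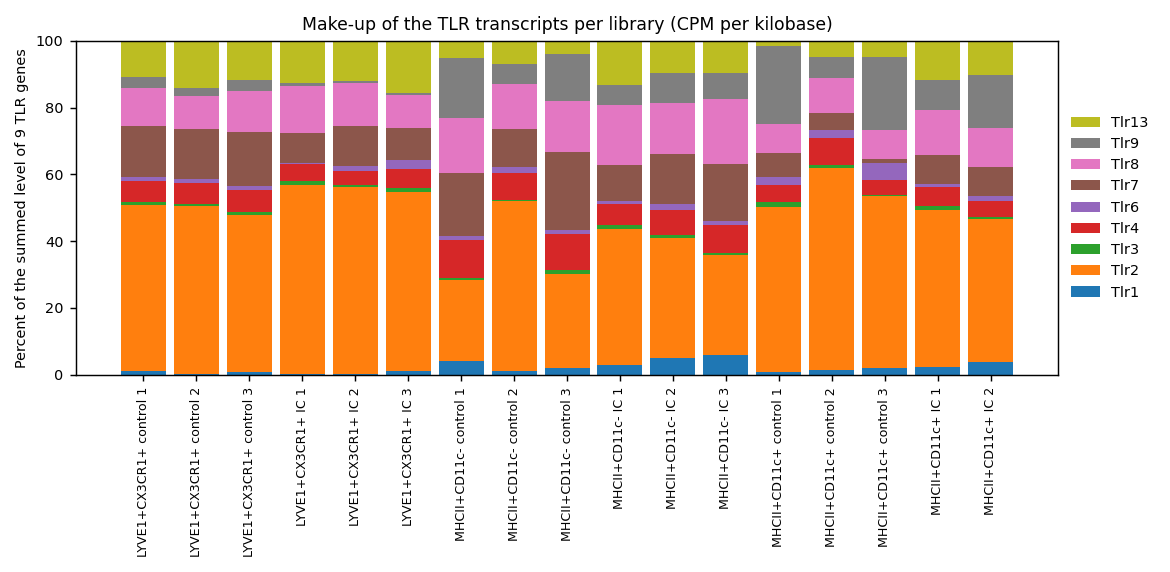
Share of each TLR gene in the summed CPM per kb of the 9 TLR genes (percent), 1 stacked bar for each of the 17 libraries. Tlr2 takes 24.3% to 60.7% of a bar, and Tlr9 takes 0.574% to 0.862% in LYVE1+CX3CR1+ macrophages after IC and 2.53% to 23.4% in the other libraries.

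The comparison of IC with control libraries asked how a circulating immune complex changes the macrophages of the joint. Averaged over the 3 subsets, Cd14, Tlr13 and Tlr8 rose, and no gene of the 10 fell. In LYVE1+CX3CR1+ macrophages alone, Cd14 rose and Tlr9 fell. These calls were 3 of the 10 genes for the average, where 3.35% of all genes tested were called, and 2 of the 10 in LYVE1+CX3CR1+ macrophages, where 0.963% were called (edgeR quasi-likelihood test, Benjamini-Hochberg adjusted p under 0.05). The median log2 fold change of the 10 genes was 0.46 for the average, against -0.07 over all genes tested, and 0.33 in LYVE1+CX3CR1+ macrophages, against -0.14 over all genes.

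Cd14, the co-receptor that hands lipopolysaccharide to TLR4, had 354, 329 and 434 CPM in the 3 LYVE1+CX3CR1+ controls and 796, 665 and 678 CPM after IC. It had 302, 603 and 305 CPM in MHCII+CD11c- controls and 678, 555 and 692 CPM after IC. It had 528, 614 and 678 CPM in MHCII+CD11c+ controls and 856 and 807 CPM after IC. Treated and control libraries did not overlap in LYVE1+CX3CR1+ and MHCII+CD11c+ macrophages, and in MHCII+CD11c- macrophages control library 2 lay above the lowest IC library. Averaged over the subsets, Cd14 rose 1.61-fold (log2 fold change 0.69 ± 0.13 SE, edgeR adjusted p = 0.00233), a call that held under every alternative tried. In LYVE1+CX3CR1+ macrophages it rose 1.92-fold (log2 fold change 0.94 ± 0.21, edgeR adjusted p = 0.0291). This call was lost without control library 1 or 2 or IC library 1 or 3 of that subset (edgeR adjusted p from 0.0578 to 0.125), with a log2 fold change between 0.86 and 1.02. The estimates in MHCII+CD11c- (0.67 ± 0.21, edgeR adjusted p = 0.187) and MHCII+CD11c+ macrophages (0.45 ± 0.23, edgeR adjusted p = 1.0) did not pass. Without both of the MHCII+ control libraries 2, a pair chosen after the data were seen, Cd14 in MHCII+CD11c- macrophages passed, with a log2 fold change of 1.07 (edgeR adjusted p = 0.00126).

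Tlr13, the receptor for bacterial ribosomal RNA, had 109, 136 and 138 CPM in LYVE1+CX3CR1+ controls and 177, 147 and 181 CPM after IC. In MHCII+CD11c- macrophages it had 40.5, 55.1 and 29.4 CPM in controls and 168, 92.9 and 97.4 CPM after IC. In MHCII+CD11c+ macrophages it had 6.59, 34.7 and 21.6 CPM in controls and 97.4 and 66.1 CPM after IC. Treated libraries lay above all controls of their subset in each of the 3 subsets. Averaged over the subsets, Tlr13 rose 2.44-fold (log2 fold change 1.29 ± 0.24, edgeR adjusted p = 0.00677), which held under every alternative tried. The estimates per subset were 0.40 ± 0.39 for LYVE1+CX3CR1+, 1.51 ± 0.41 for MHCII+CD11c- and 1.96 ± 0.45 for MHCII+CD11c+ macrophages (edgeR adjusted p = 0.721, 0.122 and 0.134), and none passed by itself.

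Tlr8, the gene of another endosomal receptor, had 94.0, 80.0 and 122 CPM in LYVE1+CX3CR1+ controls and 161, 134 and 97.1 CPM after IC. These libraries overlapped. In MHCII+CD11c- macrophages it had 106, 89.9 and 90.9 CPM in controls and 192, 123 and 161 CPM after IC. In MHCII+CD11c+ macrophages it had 31.3, 61.1 and 31.4 CPM in controls and 92.0 and 62.8 CPM after IC. Both MHCII+ subsets had no overlap between treated and control libraries. Averaged over the subsets, Tlr8 rose 1.60-fold (log2 fold change 0.68 ± 0.16, edgeR adjusted p = 0.0147), and the call was lost without MHCII+CD11c+ IC library 1 (0.59, edgeR adjusted p = 0.0888). Its neighbor Tlr7 had an average estimate of 0.39 ± 0.24 and did not pass (edgeR adjusted p = 0.437).

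Tlr9, the receptor for DNA with CG sites, had 26.0, 19.7 and 30.3 CPM in LYVE1+CX3CR1+ controls and 9.65, 6.92 and 5.39 CPM after IC, where the counts were 33, 22 and 13. It had 110, 40.3 and 80.6 CPM in MHCII+CD11c- controls and 62.1, 71.5 and 63.0 CPM after IC. It had 81.2, 36.2 and 75.6 CPM in MHCII+CD11c+ controls and 60.7 and 81.5 CPM after IC. In LYVE1+CX3CR1+ macrophages every treated library lay below every control, and in both MHCII+ subsets the libraries overlapped. Tlr9 fell 3.42-fold in LYVE1+CX3CR1+ macrophages (log2 fold change -1.78 ± 0.37, edgeR adjusted p = 0.0197). Of the 147 genes called in this comparison, 124 fell and 23 rose. The call of Tlr9 held with all libraries thinned to the same depth (-1.66, edgeR adjusted p = 0.0356), which does not even out the lower number of genes in these IC libraries. It was lost without control library 1 or 3 or IC library 2 or 3 of that subset (-1.73 to -1.56, edgeR adjusted p from 0.0604 to 0.110), when only these 6 libraries were fitted (-1.71, edgeR adjusted p = 0.130) and with limma-voom (-1.78, adjusted p = 0.347). Averaged over the subsets its estimate was -0.62 ± 0.20 and did not pass (edgeR adjusted p = 0.101).

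Siglech, a marker of another Tlr9-bearing cell type, the plasmacytoid dendritic cell, was also lower after IC in this subset. Of the 4 plasmacytoid dendritic cell markers listed, 3 were in the table, and their summed level was 20.3 to 29.7 CPM in LYVE1+CX3CR1+ controls and 1.46 to 8.18 CPM after IC. In controls most of it was Siglech, with 18.7, 15.7 and 27.1 CPM in controls and 0, 1.89 and 4.15 CPM after IC. Ccr9 and Cox6a2 were at or below 3.78 CPM in these 6 libraries. The same sum was 18.9 to 51.8 CPM in MHCII+CD11c- controls and 12.9 to 27.2 CPM after IC, and it stayed at or below 6.38 CPM in the MHCII+CD11c+ libraries, where Tlr9 was at 36.2 to 81.5 CPM. Across the 17 libraries, which share subset and treatment, the log2 levels of Tlr9 and Siglech had a Pearson r of 0.31. The r of Siglech was 0.53 with Tlr4, 0.51 with Tlr7 and -0.77 with Cd14. The summed level of the 4 B cell markers in the table did not exceed 1.67 CPM in any LYVE1+CX3CR1+ library. Whether plasmacytoid dendritic cells or B cells were in these libraries, and what part they had in the fall of Tlr9, was not tested. In bulk libraries, fewer cells of a type and less RNA per cell cannot be told apart.

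The other 6 genes did not pass in any subset or on average. In MHCII+CD11c- macrophages, Tlr1, which pairs with TLR2, had 24.3, 7.25 and 11 CPM in controls and 29.7, 36.9 and 45.7 CPM after IC, without overlap. In MHCII+CD11c+ macrophages it had 2.77, 6.87 and 6.43 CPM in controls and 14.5 and 19.4 CPM after IC, again without overlap. The estimates of Tlr1 were 1.39 ± 0.62 and 1.67 ± 0.70 in these subsets and -0.06 ± 0.66 in LYVE1+CX3CR1+ macrophages (edgeR adjusted p = 0.442, 0.820 and 0.994). Tlr2 had an average estimate of 0.40 ± 0.18 (edgeR adjusted p = 0.264), with 344, 341 and 386 CPM in LYVE1+CX3CR1+ controls and 549, 483 and 435 CPM after IC. Tlr7 in MHCII+CD11c+ macrophages had 29.1, 36.0 and 5.29 CPM in controls and 69.0 and 52.6 CPM after IC, with an estimate of 1.33 ± 0.44 (edgeR adjusted p = 0.618). Tlr4, the lipopolysaccharide receptor that works with CD14, had an average estimate of 0.09 ± 0.18 (edgeR adjusted p = 0.866). Tlr3 (0.53 ± 0.34, edgeR adjusted p = 0.458) and Tlr6 (-0.04 ± 0.31, edgeR adjusted p = 0.981) were low and their errors wide.

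**Figure D3:**
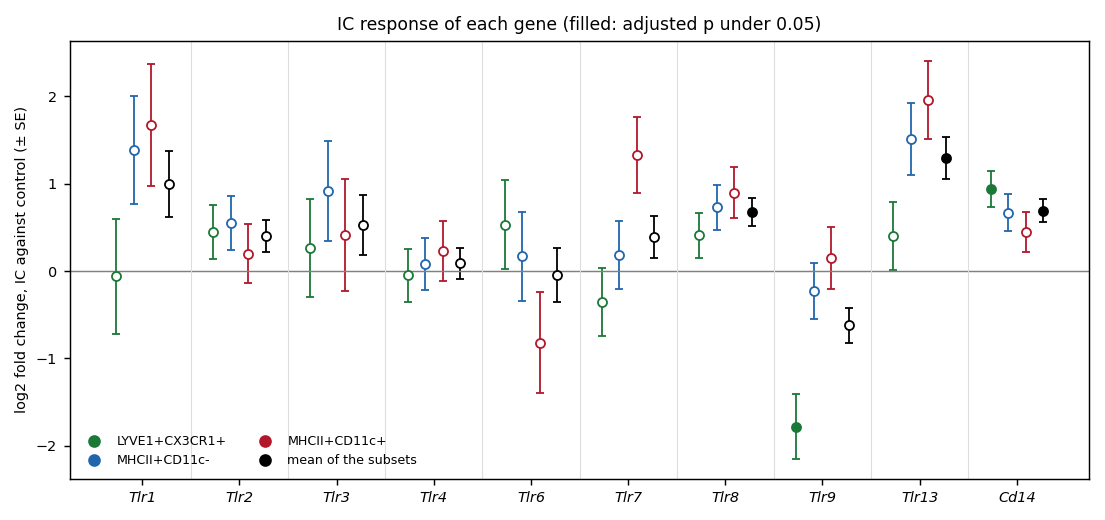
Log2 fold change of IC against control (points, with bars of 1 standard error) for the 10 genes in each subset and for the mean of the subsets, with filled points for an edgeR adjusted p under 0.05. Filled points are Tlr9 (-1.78) and Cd14 (0.94) in LYVE1+CX3CR1+ macrophages and Tlr8 (0.68), Tlr13 (1.29) and Cd14 (0.69) in the mean.

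In MHCII+CD11c- macrophages 0 of the 10 genes passed and 0.701% of all genes tested did, and in MHCII+CD11c+ macrophages 0 of the 10 passed and 0.216% of all genes did (edgeR). At an unadjusted p under 0.05, edgeR gave 4 of the 10 in each of these subsets, against 9.99% and 5.21% of all genes in the same order, and DESeq2 and limma-voom each called 1, which was Tlr13, in both subsets. Libraries of the 2 treatments did not overlap for 3 of the 10 genes in MHCII+CD11c- macrophages, against 17.2% of all genes tested, and for 6 in MHCII+CD11c+ macrophages, against 23.1%. Counts of calls turned on the MHCII+ control libraries 2. Without MHCII+CD11c- control library 2, Cd14 passed in MHCII+CD11c- macrophages (1.08, edgeR adjusted p = 0.00357), and Tlr2 and Tlr9 joined the calls for the average (0.55 and -0.72, edgeR adjusted p = 0.0387 and 0.0291). Without MHCII+CD11c+ control library 2, Tlr13 and Tlr8 passed in MHCII+CD11c+ macrophages (2.60 and 1.31, edgeR adjusted p = 0.00277 and 0.0236), Tlr13 passed in MHCII+CD11c- macrophages (1.51, edgeR adjusted p = 0.0234) and Tlr9 passed for the average (-0.72, edgeR adjusted p = 0.0307). Without MHCII+CD11c+ control library 1, Tlr13 passed in MHCII+CD11c- macrophages (1.51, edgeR adjusted p = 0.00568).

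The IC responses of the subsets were also compared with each other, and 0 of the 10 genes passed in any of these comparisons. Among all genes tested, 0.0262% passed for LYVE1+CX3CR1+ against MHCII+CD11c-, 0.0327% for LYVE1+CX3CR1+ against MHCII+CD11c+ and 0% for MHCII+CD11c+ against MHCII+CD11c- macrophages (edgeR). Of the 10 genes, 1, 3 and 0 had an unadjusted p under 0.05, against 7.54%, 8.02% and 3.25% of all genes, and DESeq2 and limma-voom called 0 in each. The log2 response of Tlr9 in LYVE1+CX3CR1+ macrophages minus that of MHCII+CD11c+ macrophages was -1.92 ± 0.51 (edgeR adjusted p = 0.220), and minus that of MHCII+CD11c- macrophages it was -1.55 ± 0.49 (edgeR adjusted p = 0.428). With 5 surrogate variables in the fit, the first of these passed (-2.18, edgeR adjusted p = 0.0459). For Tlr7 and Tlr13, the response in LYVE1+CX3CR1+ macrophages minus that in MHCII+CD11c+ macrophages was -1.68 ± 0.59 and -1.56 ± 0.60 (edgeR adjusted p = 0.438 and 0.502). A fall of Tlr9 limited to LYVE1+CX3CR1+ macrophages was therefore not established by the test of the difference.

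In control mice, the largest estimates between subsets were those of the endosomal genes Tlr7 and Tlr13. LYVE1+CX3CR1+ macrophages had higher Tlr7, Tlr13, Tlr8 and Tlr4 and lower Tlr9 and Cd14 than MHCII+CD11c+ macrophages, 6 of the 10 genes, with 15.2% of all genes called. MHCII+CD11c+ macrophages had lower Tlr7, Tlr8 and Tlr4 than MHCII+CD11c- macrophages, 3 of the 10, with 8.66% of all genes called. LYVE1+CX3CR1+ macrophages had lower Tlr9 than MHCII+CD11c- macrophages, 1 of the 10, with 1.56% of all genes called. The median log2 fold changes of the 10 genes were 0.89, -0.69 and 0.07 in these comparisons, and those of all genes 0.05, -0.03 and 0.00.

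Tlr7, a receptor for single-stranded RNA, had 143, 138 and 180 CPM in LYVE1+CX3CR1+ controls, 135, 87.7 and 159 CPM in MHCII+CD11c- controls and 29.1, 36.0 and 5.29 CPM in MHCII+CD11c+ controls. The MHCII+CD11c+ libraries lay below all others. Tlr7 was 6.35-fold higher for LYVE1+CX3CR1+ than MHCII+CD11c+ macrophages (log2 fold change 2.67 ± 0.42, edgeR adjusted p = 3.2e-04) and 5.25-fold lower for MHCII+CD11c+ than MHCII+CD11c- macrophages (-2.39 ± 0.42, edgeR adjusted p = 0.00168). Tlr8 showed the same order of groups in smaller size, 2.38-fold higher for LYVE1+CX3CR1+ than MHCII+CD11c+ macrophages (1.25 ± 0.26, edgeR adjusted p = 0.00158). It was 2.3-fold lower for MHCII+CD11c+ than MHCII+CD11c- macrophages (-1.20 ± 0.26, edgeR adjusted p = 0.00434). No alternative tried took away any of these 4 calls. Without both MHCII+ control libraries 2, the difference of Tlr7 between the MHCII+ subsets was -3.01 (edgeR adjusted p = 8.2e-05).

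Tlr13 was 6.05-fold higher for LYVE1+CX3CR1+ than MHCII+CD11c+ controls (2.60 ± 0.43, edgeR adjusted p = 4.0e-04), which held under every alternative tried and was 3.24 without MHCII+CD11c+ control library 2 (edgeR adjusted p = 1.2e-05). Against MHCII+CD11c- controls its libraries also did not overlap, at 109 to 138 CPM against 29.4 to 55.1 CPM, and the estimate of 1.60 ± 0.41 did not pass (edgeR adjusted p = 0.0619). It passed without MHCII+CD11c- control library 2 (1.86, edgeR adjusted p = 0.0456), MHCII+CD11c- IC library 1 (1.58, edgeR adjusted p = 0.0494), MHCII+CD11c+ control library 1 (1.60, edgeR adjusted p = 0.00216) or MHCII+CD11c+ control library 2 (1.60, edgeR adjusted p = 0.00903). DESeq2 and limma-voom also called it (1.56 and 1.54, adjusted p = 0.00279 and 0.00143). Between the MHCII+ subsets Tlr13 did not pass (-0.99 ± 0.42, edgeR adjusted p = 0.171), and it passed without MHCII+CD11c+ control library 2 (-1.64, edgeR adjusted p = 0.0111). With all libraries kept, limma-voom called it (-1.63, adjusted p = 0.0479) and DESeq2 did not. It also passed with a block for replicate number within treatment (-1.13, edgeR adjusted p = 0.0380).

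Tlr9 went the other way. It was 3.02-fold lower for LYVE1+CX3CR1+ than MHCII+CD11c- controls (-1.59 ± 0.33, edgeR adjusted p = 0.0122) and 2.52-fold lower than MHCII+CD11c+ controls (-1.33 ± 0.33, edgeR adjusted p = 0.00665). No LYVE1+CX3CR1+ control (19.7 to 30.3 CPM) reached the lowest MHCII+ control, which was library 2 in both subsets (40.3 and 36.2 CPM). The difference from MHCII+CD11c- macrophages lost its call without LYVE1+CX3CR1+ control library 1 or 2 or MHCII+CD11c- control library 1 (-1.63 to -1.24, edgeR adjusted p from 0.0669 to 0.123), and the difference from MHCII+CD11c+ macrophages held under every alternative tried.

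Among the surface receptors, Tlr4 had 77.2, 76.8 and 101 CPM in LYVE1+CX3CR1+ controls, 110, 82.0 and 100 CPM in MHCII+CD11c- controls and 28.3, 75.6 and 25.3 CPM in MHCII+CD11c+ controls. MHCII+CD11c+ library 2 lay just under the other subsets, and the others were far below them. Tlr4 was lower for MHCII+CD11c+ than MHCII+CD11c- macrophages (-1.16 ± 0.31, edgeR adjusted p = 0.0171) and higher for LYVE1+CX3CR1+ than MHCII+CD11c+ macrophages (0.97 ± 0.30, edgeR adjusted p = 0.0321). Without MHCII+CD11c+ control library 2 these were -1.85 and 1.66 (edgeR adjusted p = 3.5e-05 and 6.0e-05). The first call was lost without MHCII+CD11c- control library 1 or 3 or MHCII+CD11c+ control library 1 or 3 (-1.12 to -0.90, edgeR adjusted p from 0.0640 to 0.102). The second was lost without any 1 of 8 libraries, which were the 3 LYVE1+CX3CR1+ controls, LYVE1+CX3CR1+ IC library 3, MHCII+CD11c- control library 3 and IC library 1, and MHCII+CD11c+ control libraries 1 and 3 (0.71 to 1.04, edgeR adjusted p from 0.0507 to 0.166). With surrogate variables, neither passed (-0.87 and 0.68, edgeR adjusted p = 0.171 and 0.138), nor did they in fits of only the 6 libraries compared (-1.17 and 0.91, edgeR adjusted p = 0.0954 and 0.121).

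Cd14 was 1.63-fold lower for LYVE1+CX3CR1+ than MHCII+CD11c+ controls (-0.70 ± 0.21, edgeR adjusted p = 0.0229), with 329 to 434 CPM against 528 to 678 CPM. The call was lost without LYVE1+CX3CR1+ control library 1 or 2 or MHCII+CD11c+ control library 3 (-0.71 to -0.62, edgeR adjusted p from 0.0658 to 0.103) and with surrogate variables (-0.58, edgeR adjusted p = 0.0744). Without MHCII+CD11c- control library 2, Cd14 was also called higher for MHCII+CD11c+ than MHCII+CD11c- controls (1.0, edgeR adjusted p = 5.8e-04), where the fit of all libraries gave 0.59 ± 0.21 (edgeR adjusted p = 0.0876). With all libraries kept, this difference passed at equal depth (0.65, edgeR adjusted p = 0.0414) and with a block for replicate number within treatment (0.62, edgeR adjusted p = 0.0494). DESeq2 and limma-voom did not call it.

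Tlr2 had 344, 341 and 386 CPM in LYVE1+CX3CR1+ controls, 130, 287 and 141 CPM in MHCII+CD11c- controls and 149, 303 and 156 CPM in MHCII+CD11c+ controls. Every LYVE1+CX3CR1+ library lay above every MHCII+ library, and library 2, the highest of each MHCII+ subset, lay close to them. Leaving out library 2 therefore raises the estimate against its subset. The estimates were 0.94 ± 0.31 against MHCII+CD11c- and 0.82 ± 0.31 against MHCII+CD11c+ macrophages and did not pass (edgeR adjusted p = 0.187 and 0.0868). Without both MHCII+ control libraries 2 they were 1.37 and 1.18 and passed (edgeR adjusted p = 3.2e-04 and 2.3e-04). Without MHCII+CD11c- control library 2 alone they were 1.40 and 0.82 (edgeR adjusted p = 0.00585 and 0.0209), and without MHCII+CD11c+ control library 2 alone the second was 1.23 (edgeR adjusted p = 0.00466). limma-voom called both (1.07 and 0.96, adjusted p = 0.00441 and 0.00473). With a block for replicate number within treatment both also passed (1.07 and 0.93, edgeR adjusted p = 0.00388 and 0.00207). Tlr1, Tlr3 and Tlr6 did not pass between any subsets of control mice.

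**Figure D4:**
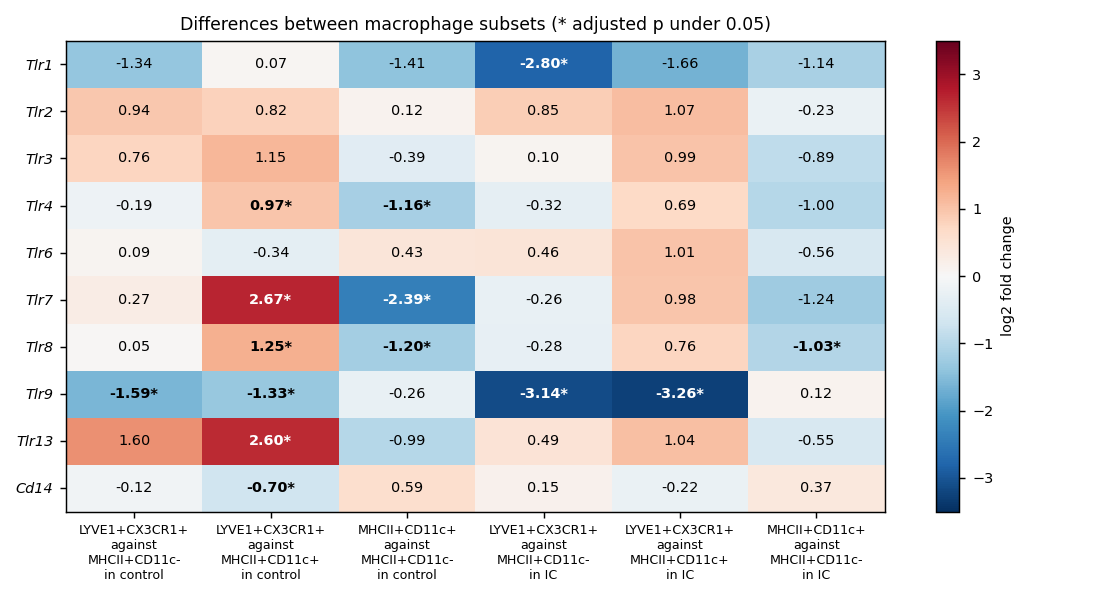
Log2 fold changes between the macrophage subsets for the 10 genes (rows) in control and IC libraries (columns), colored from blue (lower in the first subset named) to red (higher) and printed in each cell, with an asterisk for an edgeR adjusted p under 0.05. Tlr9 is lower in LYVE1+CX3CR1+ macrophages in all 4 comparisons that include them, from -1.33 to -3.26, and Tlr7 has the highest value, 2.67.

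General markers differed between these subsets too. The summed level of the 5 macrophage markers was 3250 to 5220 CPM in all LYVE1+CX3CR1+ and MHCII+CD11c- libraries, 1250 to 1570 CPM in MHCII+CD11c+ controls and 2060 to 2220 CPM in MHCII+CD11c+ macrophages after IC. The summed conventional dendritic cell markers were 6.61 to 23.3 CPM in the LYVE1+CX3CR1+ libraries, 64.4 to 209 CPM in the MHCII+CD11c- libraries and 167 to 555 CPM in the MHCII+CD11c+ libraries. The summed neutrophil markers were 74.3 to 271 CPM in MHCII+CD11c+ controls and 25.1 to 29.5 CPM after IC, and Ly6g was at or below 7.56 CPM throughout. The part of these cells in the differences of Tlr4, Tlr7, Tlr8 and Tlr13 was not tested.

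After IC challenge, the largest differences between subsets were in Tlr9. Tlr9 was 8.81-fold lower for LYVE1+CX3CR1+ than MHCII+CD11c- macrophages (-3.14 ± 0.38, edgeR adjusted p = 1.5e-05) and 9.56-fold lower than MHCII+CD11c+ macrophages (-3.26 ± 0.40, edgeR adjusted p = 5.0e-06). Its LYVE1+CX3CR1+ libraries were at 5.39 to 9.65 CPM, and the lowest MHCII+ library after IC was at 60.7 CPM. The second of these calls held under every alternative tried, and the first was lost with limma-voom (-3.08, adjusted p = 0.0535). Comparisons of subsets in control and in IC libraries use different libraries.

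Tlr1 was 6.95-fold lower for LYVE1+CX3CR1+ than MHCII+CD11c- macrophages after IC (-2.80 ± 0.68, edgeR adjusted p = 0.0137), with 3.51, 2.20 and 10.8 CPM against 29.7, 36.9 and 45.7 CPM. Without LYVE1+CX3CR1+ IC library 3 it was -3.67 (edgeR adjusted p = 0.00682). The call was lost without LYVE1+CX3CR1+ IC library 1 or 2 or MHCII+CD11c- IC library 3 (-2.62 to -2.39, edgeR adjusted p from 0.0592 to 0.0635) and with limma-voom (-3.27, adjusted p = 0.0806). Tlr8 was lower for MHCII+CD11c+ than MHCII+CD11c- macrophages (-1.03 ± 0.30, edgeR adjusted p = 0.0487), at 92.0 and 62.8 CPM against 192, 123 and 161 CPM. That call sat at the threshold and was lost without any 1 of 10 libraries, namely each of the 3 LYVE1+CX3CR1+ controls, LYVE1+CX3CR1+ IC library 2, MHCII+CD11c- control libraries 1 and 3 and IC libraries 1 and 3, and both MHCII+CD11c+ IC libraries (-1.31 to -0.78, edgeR adjusted p from 0.0536 to 0.752).

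Calls after IC were thus 2 of the 10 genes for LYVE1+CX3CR1+ against MHCII+CD11c- macrophages, where 5.54% of all genes were called, 1 for LYVE1+CX3CR1+ against MHCII+CD11c+ macrophages, where 11.9% were, and 1 for MHCII+CD11c+ against MHCII+CD11c- macrophages, where 4.03% were. Tlr2 was again highest in LYVE1+CX3CR1+ macrophages, at 435 to 549 CPM against 209 to 362 CPM and 192 to 273 CPM, and its estimates of 0.85 and 1.07 did not pass (edgeR adjusted p = 0.120 and 0.0571). The first comparison passed in 9 of 30 alternatives, DESeq2 among them (0.93, adjusted p = 0.0254), and the second in 17 of 30, among them DESeq2 (1.17, adjusted p = 0.00504), limma-voom (1.12, adjusted p = 0.00548) and equal depth (1.13, edgeR adjusted p = 0.0336). With a block for replicate number within treatment both passed (0.88 and 1.22, edgeR adjusted p = 0.00863 and 0.00146). Leaving out 1 library could bring the second comparison past the threshold. These were MHCII+CD11c- control libraries 1, 2 and 3, MHCII+CD11c- IC library 1 and MHCII+CD11c+ control libraries 1 and 2 (1.07 to 1.09, edgeR adjusted p from 0.0114 to 0.0494). Against MHCII+CD11c- macrophages it passed without MHCII+CD11c- control library 2, MHCII+CD11c- IC library 1 or MHCII+CD11c+ control library 2 (0.85 to 1.13, edgeR adjusted p from 0.0371 to 0.0470). Against MHCII+CD11c+ macrophages, Tlr13 passed without MHCII+CD11c+ control library 1 (1.04, edgeR adjusted p = 0.0243), Tlr7 without MHCII+CD11c+ control library 3 (0.98, edgeR adjusted p = 0.0102) and Tlr1 without LYVE1+CX3CR1+ IC library 3 (-2.54, edgeR adjusted p = 0.0342). With all libraries kept, limma-voom called Tlr13, Tlr8 and Tlr7 there (1.02, 0.83 and 1.02, adjusted p = 0.0193, 0.0409 and 0.0191). DESeq2 called Tlr13 and Tlr8 (1.14 and 0.85, adjusted p = 0.0486 and 0.0414) but not Tlr7. Between the MHCII+ subsets, Tlr4 passed without MHCII+CD11c+ control library 2 (-1.0, edgeR adjusted p = 0.0159) and Tlr7 without MHCII+CD11c+ control library 3 (-1.25, edgeR adjusted p = 0.00406).

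Levels of several TLR genes in the MHCII+ libraries moved with Vsig4, a receptor for complement fragments and a marker of the LYVE1+CX3CR1+ side. Vsig4 had 29.0, 306 and 22.4 CPM in MHCII+CD11c- controls and 541, 144 and 28.3 CPM after IC. It had 1.06, 81.2 and 0 CPM in MHCII+CD11c+ controls and 99.9 and 16.7 CPM after IC. In each of these 4 groups, the library with the most Vsig4 also had the most Tlr2 (287, 362, 303 and 273 CPM).

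Over the 11 MHCII+ libraries, which share subset and treatment, the Pearson r of log2(CPM + 1) with Vsig4 was 0.78 for Tlr2, 0.78 for Tlr13, 0.80 for Tlr8 and -0.50 for Tlr9. With Lyve1 it was 0.96 for Tlr4, 0.96 for Tlr8 and 0.88 for Tlr7. Over all 17 libraries, Tlr2 and Tlr9 had an r of -0.85 with each other, whereas Tlr4, Tlr7 and Tlr8 had 0.84 to 0.87 among themselves. An alternative chosen after the data were seen left out the MHCII+ library highest in Vsig4 in each of the 4 groups. These libraries also held the most Tlr2 of their groups, so a larger Tlr2 difference between subsets follows from leaving them out. The log2 estimates of Tlr2 were then 1.41 and 1.24 for LYVE1+CX3CR1+ against MHCII+CD11c- and MHCII+CD11c+ controls. In the same fit, the IC response of Tlr2 was 0.75 in MHCII+CD11c- macrophages and 0.51 on average. MHCII+CD11c+ macrophages after IC were left with 1 library, assumed to vary like the other groups. Whether the level of Vsig4 reflects cells of the other subset in the sort was not tested.

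**Figure D5:**
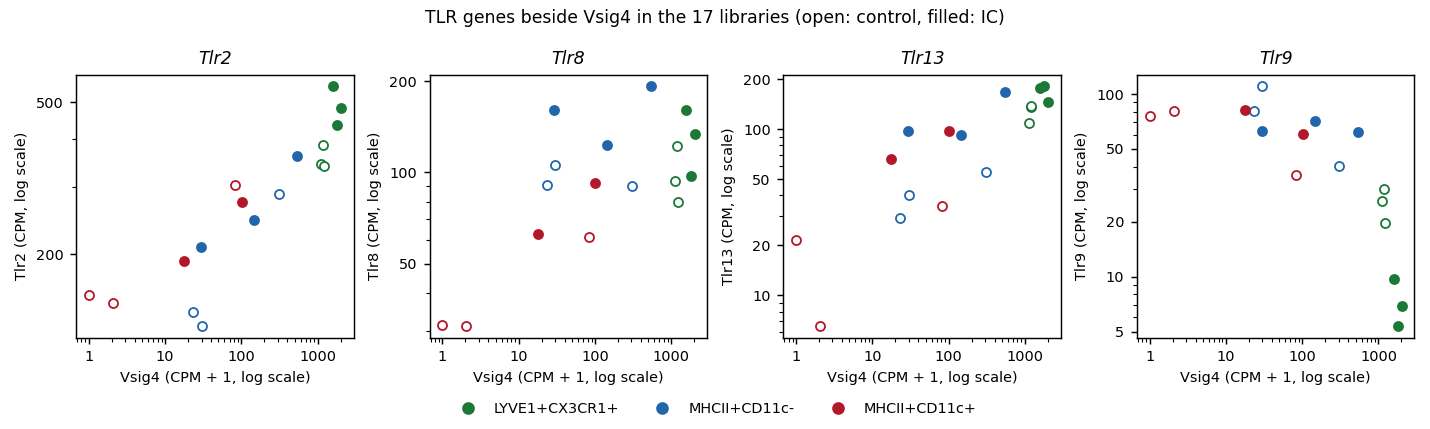
Levels of Tlr2, Tlr8, Tlr13 and Tlr9 (CPM, log axis) against Vsig4 (CPM + 1, log axis) in the 17 libraries, with open points for control and filled points for IC. Among the 11 MHCII+ libraries r is 0.78 for Tlr2 and -0.50 for Tlr9, and LYVE1+CX3CR1+ libraries lie at the right end, at 1120 CPM of Vsig4 or above.

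The other genes of the TLR pathway were taken as 66 genes in 8 lists, of which 63 were tested. After IC, 6 of the 63 rose and 0 fell on average, where 3.35% of all genes were called. In MHCII+CD11c+ macrophages 3 rose, where 0.216% of all genes were called, and in MHCII+CD11c- macrophages 1 rose, where 0.701% were (Lrrc59, 0.89 ± 0.18, edgeR adjusted p = 0.0140). In LYVE1+CX3CR1+ macrophages, edgeR called 0 of the 63, DESeq2 called 2 and limma-voom 0, and edgeR called 0.963% of all genes. At an unadjusted p under 0.05, edgeR gave 8 of the 63 there, against 14.1% of all genes tested. In MHCII+CD11c- macrophages DESeq2 and limma-voom each called 3, and edgeR gave 14 at that unadjusted p, against 9.99% of all genes. In MHCII+CD11c+ macrophages DESeq2 called 3 and limma-voom 4, and edgeR gave 10 at that unadjusted p, against 5.21% of all genes. Of the 6 genes that rose on average, 3 were among the 10 genes for chaperones and endosomal handling, with a median of 0.17 for that list and -0.07 for all genes. Lgmn, which encodes a protease that cuts TLR9 in endosomes, rose by 0.73 ± 0.12 on the log2 scale (edgeR adjusted p = 6.5e-04). Ctsb, another lysosomal protease, rose by 0.53 ± 0.11 (edgeR adjusted p = 0.00677) and Lrrc59, a factor in the exit of endosomal TLRs from the endoplasmic reticulum, by 0.58 ± 0.10 (edgeR adjusted p = 0.00194). In MHCII+CD11c+ macrophages, Lgmn was at 272 ± 104 CPM in controls and 743 ± 143 CPM after IC (SD, edgeR adjusted p = 0.00578). Ctsb rose there by 1.25 ± 0.20 (edgeR adjusted p = 0.00965). Calls within a subset were lost in 3 to 6 alternatives.

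Irf7, the transcription factor that drives type I interferon downstream of TLR7 and TLR9, rose by 1.25 ± 0.21 on average (edgeR adjusted p = 0.00274) and by 2.26 ± 0.40 in MHCII+CD11c+ macrophages (edgeR adjusted p = 0.0244). It had 23.6, 17.3 and 44.6 CPM in those controls and 166 and 102 CPM after IC, and 52.4, 39.7 and 49.8 CPM in LYVE1+CX3CR1+ controls and 55.6, 39.3 and 52.3 CPM after IC. The libraries overlapped in LYVE1+CX3CR1+ macrophages and did not overlap in MHCII+CD11c+ macrophages. In MHCII+CD11c- macrophages Irf7 had 59.4 to 137 CPM in controls and 190 to 407 CPM after IC, also without overlap. edgeR did not call Irf7 in that subset, where DESeq2 and limma-voom each called 1 of the 6 transcription factor genes tested. Dusp1, a phosphatase that damps MAP kinase signals, rose by 0.42 ± 0.09 (edgeR adjusted p = 0.00796) and Ikbke, a kinase upstream of interferon regulatory factors, by 0.98 ± 0.27 (edgeR adjusted p = 0.0489, a call lost in 16 alternatives). Of the 9 target genes of TLR signals tested, among them Tnf, Il1b and Il6, edgeR called 0 after IC in any subset or on average, with a median of 0.06 for the average. At an unadjusted p under 0.05 there were 1 (LYVE1+CX3CR1+), 4 (MHCII+CD11c-) and 2 (MHCII+CD11c+) of the 9 in the subsets and 3 for the average. The shares of all genes tested were 14.1%, 9.99%, 5.21% and 17.7% in the same order (edgeR). DESeq2 called 1 in LYVE1+CX3CR1+ macrophages and 1 for the average, and limma-voom called 1 for the average. Of 6 adaptor and 6 co-receptor genes tested, edgeR, DESeq2 and limma-voom each called 0 after IC in any subset or on average. Their medians were 0.11 and 0.07 for the average. At an unadjusted p under 0.05 edgeR gave 2 adaptors and 0 co-receptors for the average, against 17.7% of all genes tested.

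Between the subsets, 5 of the 9 target genes were lower for LYVE1+CX3CR1+ than MHCII+CD11c+ controls and 0 were higher. Of all 63 genes 19 passed in this comparison, 4 higher and 15 lower, where 15.2% of all genes were called. Il6 had 3.18 ± 1.53 CPM in LYVE1+CX3CR1+ controls and 179 ± 52.2 CPM in MHCII+CD11c+ controls (SD over 3 libraries each, edgeR adjusted p = 3.0e-05). Il1b had 31.3 ± 30.7 and 662 ± 99.6 CPM (edgeR adjusted p = 0.00237), and Ptgs2, the inducible cyclooxygenase, 14.3 ± 7.49 and 132 ± 47.9 CPM (edgeR adjusted p = 1.2e-04). The chemokine Cxcl10 had 2.15 ± 1.94 and 62.7 ± 15.6 CPM (edgeR adjusted p = 1.8e-04). The median of the target genes was -4.44, or -3.00 with genes at or under the floor in 1 group set to their bound, against 0.05 for all genes.

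The transcription factors Irf5 (-1.08 ± 0.16, edgeR adjusted p = 2.9e-05) and Rel (-1.10 ± 0.19, edgeR adjusted p = 1.6e-04) and the adaptors Myd88 (-0.83, edgeR adjusted p = 0.0308) and Ticam1, which encodes TRIF (-1.0, edgeR adjusted p = 0.0225), were lower for LYVE1+CX3CR1+ than MHCII+CD11c+ controls. The negative regulators Il1rl1 (-4.56, edgeR adjusted p = 6.3e-05), Tnfaip3 (-1.42, edgeR adjusted p = 0.00484) and Zc3h12a (-0.77, edgeR adjusted p = 0.0131) were lower as well, as was the kinase gene Chuk (-0.93, edgeR adjusted p = 0.0466). Lgmn (2.50 ± 0.21, edgeR adjusted p = 1.0e-08), Ctsb (1.80 ± 0.19, edgeR adjusted p = 2.9e-07), Tlr5, the flagellin receptor (2.54 ± 0.57, edgeR adjusted p = 0.00392) and the kinase gene Tbk1 (0.69, edgeR adjusted p = 0.0155) were higher. Sigirr, an inhibitory receptor of the family (0.524 ± 0.0453 against 7.72 ± 1.49 CPM, edgeR adjusted p = 0.0364), and Tlr11, a profilin receptor (0.396 ± 0.345 against 14.8 ± 10.2 CPM, edgeR adjusted p = 0.0105), were lower, with LYVE1+CX3CR1+ levels close to the floor. The calls of Sigirr, Chuk, Tbk1, Myd88 and Ticam1 were lost in 11, 10, 6, 5 and 4 alternatives. Against MHCII+CD11c- controls, 2 of the 63 passed, where 1.56% of all genes were called, both target genes and both lower. They were Ptgs2 (-2.10, edgeR adjusted p = 0.0254) and Il6 (-2.79, edgeR adjusted p = 0.0432), and these calls were lost in 4 and 12 alternatives. DESeq2 called 7 of the 63 in this comparison and limma-voom 10.

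Between the MHCII+ subsets of control mice, 5 of the 63 were higher and 6 lower in MHCII+CD11c+ macrophages, where 8.66% of all genes were called. Lower genes were those of the endosomal route, Lgmn (-2.02), Ctsb (-1.67) and Unc93b1, the chaperone of the nucleic acid receptors (436 ± 135 against 808 ± 243 CPM, -0.89 ± 0.21, edgeR adjusted p = 0.00764), with Tlr5 (-3.65), Irf7 (-1.90) and the adaptor gene Pik3ap1 (-0.96). Higher genes were Rel (1.07), Irf5 (0.82), Il1rl1 (2.25), Tnfaip3 (1.25) and Il6 (3.07). The calls of Unc93b1, Pik3ap1 and Tnfaip3 were each lost in 4 alternatives, and the others held. The median of the list for endosomal handling was -0.18, and that of all genes -0.03.

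After IC, 12 of the 63 were lower and 0 higher for LYVE1+CX3CR1+ than MHCII+CD11c- macrophages, where 5.54% of all genes were called. DESeq2 called 15 of the 63 and limma-voom 4, and of the 9 target genes edgeR and DESeq2 each called 4 and limma-voom 0. The smallest p was that of Irf7 (49.1 ± 8.58 against 286 ± 111 CPM, edgeR adjusted p = 5.5e-04), followed by Irf5 (-0.83, edgeR adjusted p = 0.00228), the anti-inflammatory cytokine gene Il10 (-2.16, edgeR adjusted p = 0.00580) and Ikbke (-2.26, edgeR adjusted p = 0.00587). The others were Il6 (-3.75), Ptgs2 (-1.74), Cxcl10 (-2.40), Socs1 (-1.55), Il1rl1 (-2.17), Pik3ap1 (-0.92), the TLR chaperone gene Hsp90b1 (-0.66) and Tlr5 (-2.20). Of these, the calls of Cxcl10, Il1rl1 and Ptgs2 were lost in 19, 18 and 10 alternatives, those of Tlr5, Hsp90b1, Pik3ap1 and Socs1 in 5 each, that of Il6 in 2 and that of Il10 in 1. Il6 had 0, 3.46 and 0 CPM in the LYVE1+CX3CR1+ libraries after IC, so that its fold rests on 1 library. Against MHCII+CD11c+ macrophages after IC, where 11.9% of all genes were called, 1 was higher, Lgmn (1.27 ± 0.23, edgeR adjusted p = 5.1e-04), and 15 were lower, including Irf5 (-1.58), Rel (-1.45), Il6 (-6.22), Ptgs2 (-3.35), Il1b (-4.44) and Ticam1 (-1.13), a call lost in 7 alternatives. Tlr11 had 0 counts in the LYVE1+CX3CR1+ libraries after IC and was at least 5.60-fold lower than MHCII+CD11c+ macrophages, with the floor of 3 counts per library averaged over the group. Between the MHCII+ subsets after IC, Rel (1.19), Irf5 (0.75), Il6 (2.47) and Il12b were higher in MHCII+CD11c+ macrophages, and Tlr5 (-3.33) and Lgmn (-1.09) were lower, 6 of the 63, where 4.03% of all genes were called. DESeq2 called 12 and limma-voom 17. Il12b was at least 11.3-fold higher by the same floor, and the calls of Il12b and Il6 were lost in 8 and 7 alternatives.

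For each of the 7 genes with a call, the genes with the most similar pattern were sought among 6907 genes of sufficient level, by Pearson r of log2 CPM over the 17 libraries, which share subset and treatment. Tlr7 was most like Trpv4 (r = 0.98) and Maoa (0.97), and Tlr9 was most like Themis2 (0.97) and Nrros (0.96). Tlr8 was most like C1qb (0.95) and Ms4a4a (0.94), and Tlr4 was most like Pf4 (0.95) and Dse (0.95). For Tlr13 they were Pam (0.93) and Lgals1 (0.91), for Tlr1 Slc13a3 (0.92) and Ifit2 (0.87), and for Cd14 Psma1 (0.88) and Ucp2 (0.88). The gene Nrros went from 211 to 156 CPM after IC in LYVE1+CX3CR1+ macrophages and Themis2 from 141 to 85.9 CPM, where Tlr9 went from 25.3 to 7.32 CPM.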

How the data were processed

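A stranded low-input kit was used on 5 ng of RNA per library. According to the labels and the study's methods, the authors trimmed reads with Trim Galore, checked them with FastQC, aligned them with HISAT2 (mm10) and used featureCounts to count reads per gene. The deposited values are raw counts. Versions, annotation and use of strand are not given in the sources used here, and the authors tested with DESeq2 after removing unnamed batches with sva. The joint table also held 1 unmatched column, which summed to 0 and was not used.

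Counts of the 22859 genes were filtered with filterByExpr over the 6 groups (minimum count 10, 15272 genes left), scaled by TMM and fitted in edgeR 4.0.16 (R 4.3.3) with 1 mean per group over all 17 libraries (robust glmQLFit, 11 residual degrees of freedom). Each of the 13 contrasts had a quasi-likelihood F test, with Benjamini-Hochberg adjustment over all genes of a contrast and a threshold of 0.05. The script was tested on simulated data. Levels per kb used GENCODE M21 transcript lengths. Libraries of a group differed by at least 6.77 times counting noise (chi-square per degree of freedom), so none was the same library sequenced again. Separate libraries made from the same RNA or mouse could not be recognized in this way. Alternatives were DESeq2 1.42.0, limma-voom (limma 3.58.1), DESeq2 size factors, no filter, equal depth, a length offset, 5 surrogate variables (sva 3.50.0), a replicate block, fits of only the groups compared and leaving out libraries.

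The 10 genes were always named. From the pathway lists, genes called in a contrast were named, and for genes with a call the 2 most similar genes. The genes and lists were chosen with earlier results of these data known, so they give no independent support to a pattern. Tlr12 was not analysed here.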

Additional observations from a re-analysis of the deposited data

How the results depend on the processing

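Of the 19 calls among the 10 genes, 9 held under every alternative, and over the 544 recomputations 488 stayed past the threshold, 56 did not and 0 reversed. Numbers of the 10 genes called are given in the order of IC against control in LYVE1+CX3CR1+, MHCII+CD11c-, MHCII+CD11c+ and their average. Next come LYVE1+CX3CR1+ against MHCII+CD11c-, LYVE1+CX3CR1+ against MHCII+CD11c+ and MHCII+CD11c+ against MHCII+CD11c-, first in control and then in IC. In that order the fit of all libraries gave 2, 0, 0, 3, 1, 6, 3, 2, 1 and 1. limma-voom gave 1, 1, 1, 3, 3, 7, 4, 0, 5 and 3, and DESeq2 gave 2, 1, 1, 3, 2, 6, 3, 3, 4 and 2. Fits of only the groups compared gave 1, 1 and 0 for the 3 subsets after IC, could not be made for the average, and gave 2, 5, 2, 3, 4 and 4 for the pairs of subsets. Equal depth gave 2, 1, 1, 3, 2, 5, 4, 2, 2 and 0. Without both MHCII+ control libraries 2 they were 2, 3, 3, 5, 3, 7, 5, 3, 4 and 2, and without the 4 MHCII+ libraries highest in Vsig4 2, 3, 1, 5, 3, 7, 5, 3, 4 and 1. DESeq2 size factors gave 2, 0, 0, 3, 1, 6, 3, 2, 3 and 1, the length offset 2, 0, 0, 3, 1, 6, 3, 2, 2 and 0, and surrogate variables 2, 0, 0, 3, 1, 4, 2, 3, 5 and 2. Surrogate variables also gave 1 for the difference of IC responses between LYVE1+CX3CR1+ and MHCII+CD11c+. Leaving out single libraries gave ranges of 0 to 2, 0 to 1, 0 to 2, 2 to 5, 0 to 3, 4 to 7, 2 to 4, 1 to 3, 1 to 3 and 0 to 2, and 0 to 0 for the 3 differences of IC responses. Shares of all genes called are given for the fit of all libraries only, so a change in these counts need not be particular to the 10 genes. The cause of these moves was not tested.

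Replicate numbers were not taken as pairs in the fit of all libraries, since correlations of same-numbered libraries did not all exceed 0.1 in any pair of groups. They were highest between the MHCII+ controls (0.099, 0.286 and 0.08), where 6 of 6 libraries correlated best with their own number. The same held for 5 of 6 in LYVE1+CX3CR1+ with MHCII+CD11c+ controls and in LYVE1+CX3CR1+ with MHCII+CD11c- macrophages after IC. It held for 3 of 6 in LYVE1+CX3CR1+ with MHCII+CD11c- controls, and for 0 to 3 of 6 between control and IC libraries. Pairing within a treatment was thus not excluded. With the replicate block, 18 calls were made in place of 19, as 2, 0, 0, 3, 1, 5, 3, 2, 2 and 0. With the replicate block within treatment, which gives the pairs of subsets only, they were 3, 7, 5, 3, 2 and 1. Under that block Tlr2 passed against MHCII+CD11c- and MHCII+CD11c+ macrophages in control (1.07 and 0.93, edgeR adjusted p = 0.00388 and 0.00207) and in IC (0.88 and 1.22, edgeR adjusted p = 0.00863 and 0.00146). Of the 73 pathway calls, 34 held throughout and 0 reversed. Low counts limit Tlr1, Tlr3 and Tlr6 most, and MHCII+CD11c+ macrophages after IC rest on 2 libraries, so that leaving out 1 assumes that the other varies like the rest.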
